A study of Arabidopsis thaliana with 3 samples.

Results

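The genes described here are the core and linker histone genes of Arabidopsis thaliana. They were chosen as 44 listed loci covering H1, H2A with its variants, H2B, H3.1, H3.3, the centromeric H3 and H4, and each was read from the entry of the expression table that carries its locus name. All 44 were found among the 33559 loci of the table, and none had more than 1 entry. By class, 27 genes encode the replication-coupled histones (5 H3.1, 8 H4, 4 canonical H2A and 10 H2B genes), 14 encode variants (3 H3.3, 1 centromeric H3, 2 H2A.X, 3 H2A.W, 4 H2A.Z and 1 divergent H2B gene) and 3 encode the linker histone H1.

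RNA was sequenced from whole seedlings of the wild type Col-0 and of the single mutants mms19-1 and abo4, each 14 days old and with no treatment named, with 1 library per genotype. MMS19 is a factor of cytosolic iron-sulfur cluster assembly, and ABO4 is the catalytic subunit of DNA polymerase epsilon. The mms19 plants carry a T-DNA insertion in MMS19, and abo4 is a weak missense allele, since loss of ABO4 is lethal in the embryo. Levels are given in FPKM, which are fragments scaled to transcript length and to the mapped fragments of the library.

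Because each genotype is 1 library, no test between genotypes was possible, no difference has a replicate check, and any difference may be one between these 3 libraries only. The 95% exact intervals given for ratios come from estimated reads and cover counting error only. Both mutants are compared with the same wild-type library, so an error in that library enters both comparisons. A group of cells that is more or less frequent and a gene that is more or less active per cell cannot be told apart in whole seedlings.

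A nucleosome holds pairs of H2A, H2B, H3 and H4 with DNA wrapped around them, and H1 binds the DNA between nucleosomes. Replication-coupled histones are made mainly in S phase to package new DNA, while replacement variants such as H3.3 and H2A.Z are deposited at any time of the cell cycle. H2A.X is the form phosphorylated at DNA breaks, H2A.W marks heterochromatin in plants, and the centromeric H3 (CENH3) carries the kinetochore. In plants the messenger RNAs of the replication-coupled histones carry poly(A) tails, unlike most of those in animals.

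The read totals behind the FPKM scaling were estimated at 56116000 (Col-0), 51402000 (mms19) and 49760000 (abo4). The study states a larger number of reads obtained for each library. MMS19 was listed at 10.1 FPKM in Col-0, 0.228 in mms19 and 9.01 in abo4, so the mms19 library held 2.25% of the wild-type level (interval 1.62 to 3.03%). ABO4 was listed at 5.03, 6.95 and 8.09 FPKM, and a missense allele leaves no mark in FPKM by which the abo4 label could be checked. Green shoot markers summed to 33594, 33015 and 36915 FPKM, with 1 of 4 higher in mms19 and 3 of 4 in abo4, where LHB1B1 stood at 160% of Col-0. Root markers summed to 1176, 1176 and 1224 FPKM, most of it PYK10 (990, 1022 and 1072). BGLU21 (126, 103 and 105) and BGLU22 (59.8, 51.0 and 47.4) were lower than Col-0 in both mutants. Of the shoot meristem markers, WUS and CLV3 lay at or below 0.0571 FPKM in every library. STM was listed at 5.41, 5.19 and 8.02 FPKM and KNAT1 at 14.2, 13.8 and 18.5, both higher than Col-0 in abo4. Over all genes averaging 1 FPKM or more, the median log2 ratio to Col-0 was -0.02 (mms19) and -0.01 (abo4).

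Histone genes were among the well-expressed genes of the seedlings. Of the 44 genes, 43 averaged 1 FPKM or more, and the exception was AT1G08170, the H2B gene placed with the variants, which RefSeq describes as expressed in sperm cells. It was listed at 0.540 FPKM in Col-0, 0.221 in mms19 and 0.229 in abo4, from about 22.2, 8.34 and 8.35 reads, so the interval of its mms19 level runs from 15.3 to 92.6% of Col-0 and that of its abo4 level from 15.8 to 95.6%. The 4 pollen markers summed to 0.629, 0.754 and 0.509 FPKM, and MGH3, a sperm-cell H3 gene, was listed at 0 in all 3 libraries. The 4 highest levels in the wild type belonged to the H3.3 genes AT4G40040 and AT4G40030 at 528 and 340 FPKM, the linker gene HIS1-3 at 287 FPKM and the H3.3 gene AT5G10980 at 274 FPKM.

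**Figure D1:**
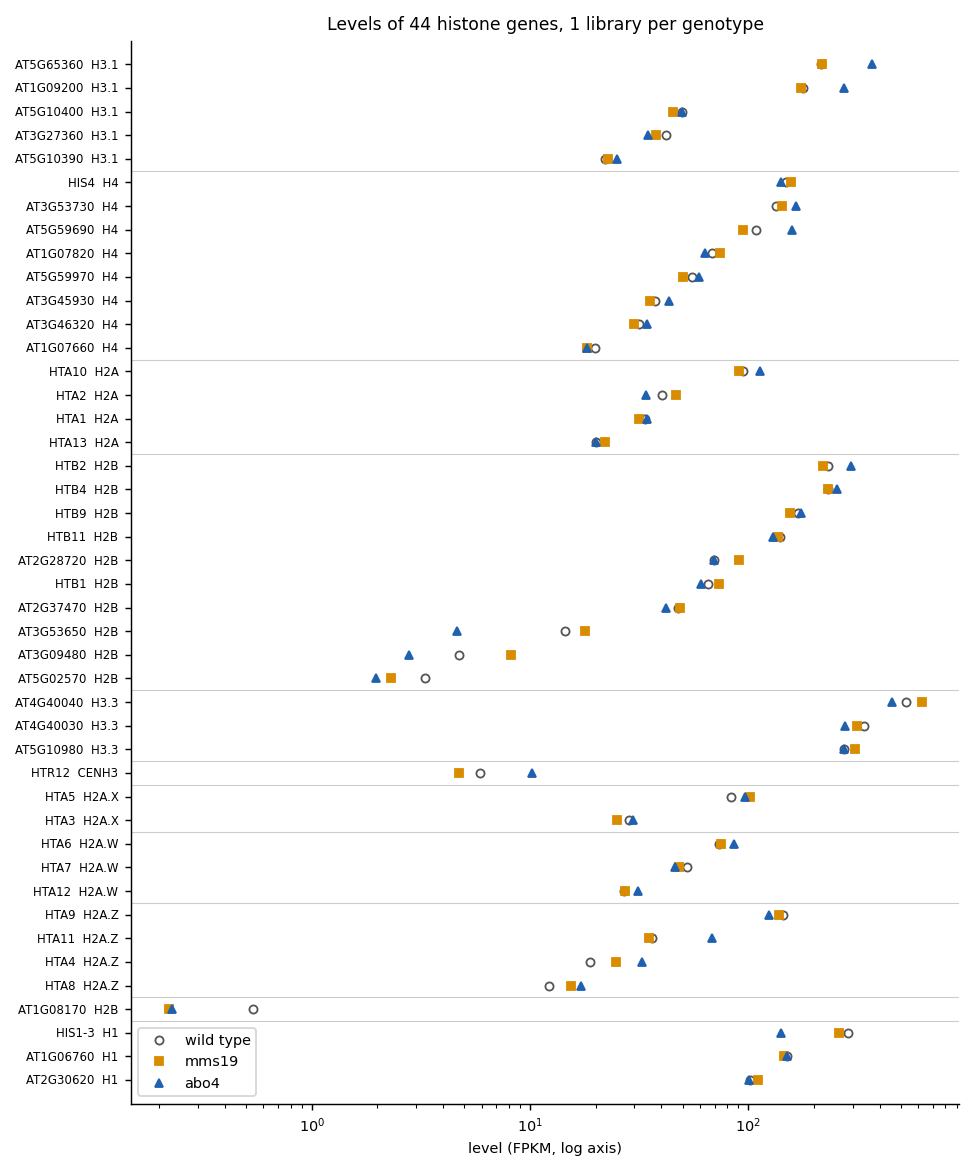
Level in FPKM (horizontal log axis) of each of the 44 histone genes in the wild type (open circles), mms19 (squares) and abo4 (triangles), with 1 library per genotype and no error bars, in blocks of histone type. The triangles of AT5G65360, AT1G09200, HTR12 and HTA11 lie to the right of the other symbols, and those of AT3G53650 and HIS1-3 to the left.

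Taken over all 44 genes, the ratios of both mutants were centred near 0. The median log2 ratio of FPKM + 0.1 was -0.03 for mms19 and 0.01 for abo4. In mms19, 20 genes were higher and 24 lower than in the wild type, beside 44.9% higher and 55.0% lower among all genes averaging 1 FPKM or more. In abo4, 24 were higher and 20 lower, beside 47.9% and 52.0% of all genes. No histone gene was more than 2-fold higher or lower in mms19, where 1.03% of all genes were higher and 0.804% lower by that limit. In abo4 none was more than 2-fold higher, beside 1.92% of all genes, and 2 were more than 2-fold lower, the H2B gene AT3G53650 and the linker gene HIS1-3, beside 1.9% of all genes.

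At 1.5-fold, 1 gene was higher in mms19 (background 2.51%) and 1 lower (2.54%), and in abo4 5 were higher (5.27%) and 5 lower (5.56%). A smaller limit was set at 125% of the Col-0 level upwards and 80% downwards, each on FPKM + 0.1. In mms19, 4 genes lay above 125% (background 6.82%) and 2 below 80% (8.13%). In abo4, 8 lay above 125% (background 12.6%) and 5 below 80% (13.7%). AT1G08170, which averaged below 1 FPKM and so lies outside the background genes, is among the lower genes of both mutants at 1.5-fold and at 80%. The 8 genes above 125% in abo4 were AT5G65360 and AT1G09200 (H3.1), AT5G59690 (H4), HTB2 (H2B), HTR12 (CENH3) and the H2A.Z genes HTA4, HTA8 and HTA11. The 5 below 80% were AT3G53650, AT3G09480 and AT5G02570 (H2B), AT1G08170 and HIS1-3. Of 44 genes, 30 stayed between 80% and 125% in both mutants, beside 66.8% of all genes.

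**Figure D2:**
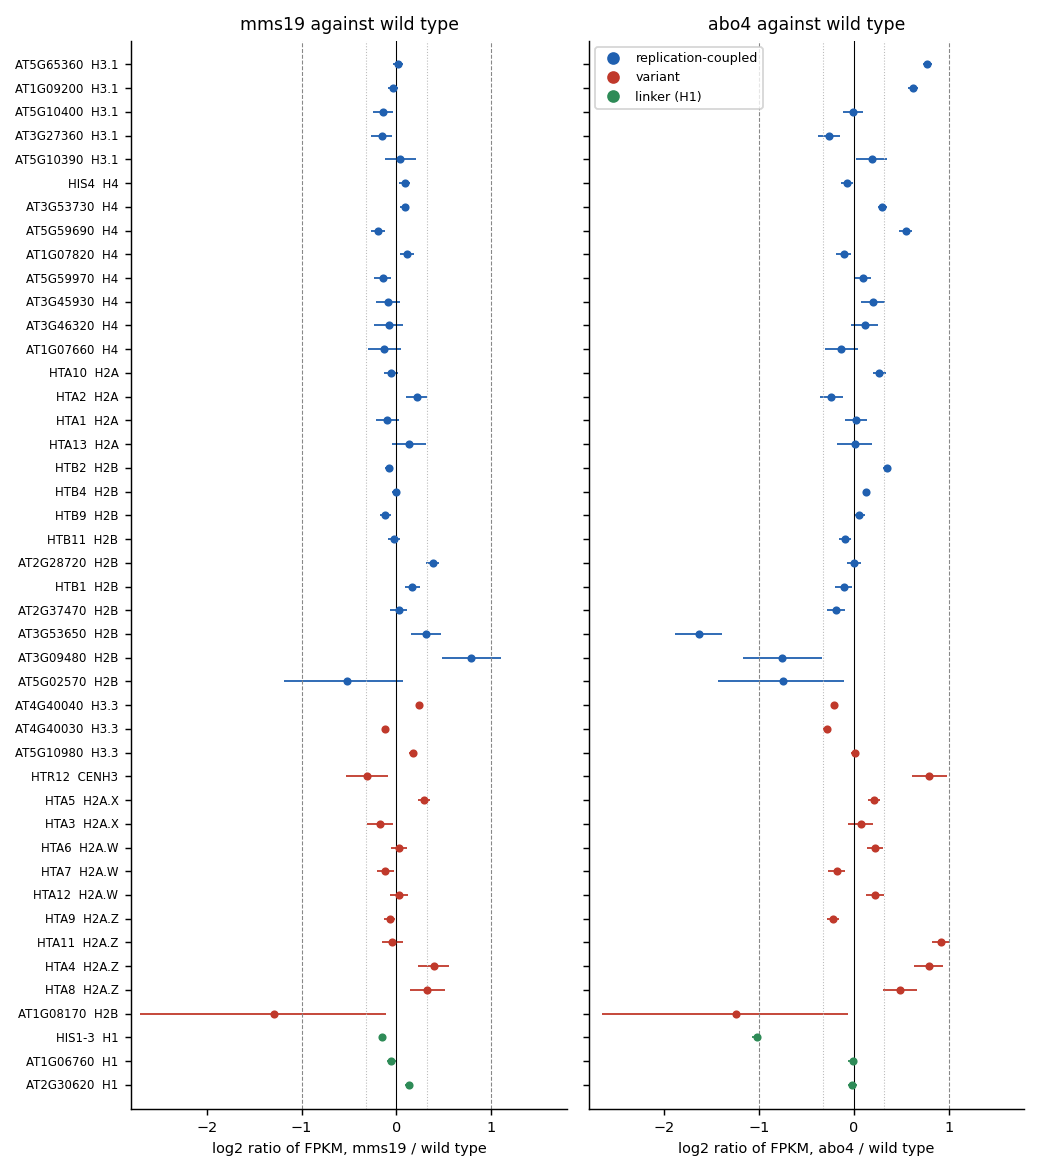
Log2 ratio of FPKM of each histone gene in mms19 (left) and abo4 (right) over the wild type, with bars for the 95% exact interval of counting error and colours for the class. Dotted lines mark 80% and 125% of the Col-0 level and dashed lines 2-fold. In mms19 most points lie between the dotted lines, and in abo4 HTA11, HTR12, HTA4 and AT5G65360 lie farthest to the right and AT3G53650 farthest to the left.

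H3.1 was the replication-coupled type with the largest summed difference in abo4, and the difference sat in 2 of its 5 genes. H3.1 is placed on DNA behind the replication fork. AT5G65360 was listed at 215 FPKM in Col-0, 218 in mms19 and 368 in abo4. AT1G09200 was listed at 178, 173 and 274 FPKM. For both genes the wild type and mms19 lay close together and abo4 stood above them. The abo4 level was 171% of the wild-type level for AT5G65360 (interval 166 to 177%) and 154% for AT1G09200 (149 to 160%).

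The other 3 H3.1 genes did not share this difference. AT5G10400 was listed at 49.8 FPKM in Col-0, 45.1 in mms19 and 49.4 in abo4. AT5G10390, its neighbour 577 nt away, was listed at 22.0, 22.7 and 25.1 FPKM, and AT3G27360 at 41.9, 37.7 and 34.9 FPKM. In abo4, AT5G10390 stood at 114% of Col-0 (102 to 127%) and AT3G27360, which overlaps another annotated gene, at 83.2% (76.9 to 90.1%). Summed over the 5 genes, H3.1 stood at 506.7 FPKM in Col-0, 497.0 in mms19 and 751.4 in abo4, and AT5G65360 and AT1G09200 made up 77.6%, 78.8% and 85.4% of these sums.

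H3.3, the replacement form found in transcribed chromatin and in cells that no longer divide, stood at 88.4% of the Col-0 sum in abo4, and its median log2 ratio there was -0.21, beside 0.19 for H3.1. AT4G40040 was listed at 528 FPKM in Col-0, 623 in mms19 and 457 in abo4. AT4G40030, which lies 42 nt from it, was listed at 340, 313 and 278 FPKM. AT5G10980 was listed at 274, 309 and 275 FPKM. All 3 H3.3 genes stayed between 80% and 125% in both mutants, and only AT4G40030 was lower than the wild type in both. The H3.1 share of the summed H3.1 and H3.3 level was 30.7% in Col-0, 28.5% in mms19 and 42.6% in abo4.

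H3.1 and H3.3 proteins differ at few residues, of which residue 31 is one, so the coding stretch around codon 31 (counted without the start codon) is shown for the 2 strongest H3.1 genes and the 3 H3.3 genes, with that codon in capitals. The stretches are from the RefSeq annotation of TAIR10.1, all on the minus strand, at chr5:26120399-26120428 for AT5G65360, chr1:2972022-2972051 for AT1G09200, chr4:18556225-18556254 for AT4G40030, chr4:18558039-18558068 for AT4G40040 and chr5:3472981-3473010 for AT5G10980.
AT5G65360: aaatcagctccgGCGaccggaggagtaaag
AT1G09200: aaatctgctccgGCCaccggaggagtgaag
AT4G40030: aaatctgcaccaACTactggtggagtcaag
AT4G40040: aagtctgcaccaACCactggaggagtcaag
AT5G10980: aaatcagcaccaACCaccggaggagtcaag
Positions were counted from 1 at the 5′ end of the stretch in AT5G65360. The change G13A in the first base of this codon and the changes T9A, G12A and A27C were found in each of the 3 H3.3 genes. Base 15 differed in each of them too, as G15T in AT4G40030 and G15C in AT4G40040 and AT5G10980. G12A was also found in the H3.1 genes AT3G27360 and AT5G10400, which are not shown. AT1G09200 differed from AT5G65360 at 3 positions of the stretch (A6T, G15C and A27G). The coding sequences of the 5 H3.1 genes shared 80.3 to 89.5% of bases in pairs. None of the 45-nt windows of AT5G65360 and AT1G09200 occurred elsewhere among annotated transcripts as an exact match. Windows that differ at 1 or 2 bases, which the alignment allowed, were not counted.

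CENH3, encoded by HTR12, was the H3 form with the largest ratio between the mutants. HTR12 was listed at 5.88 FPKM in Col-0, 4.74 in mms19 and 10.2 in abo4. The abo4 level was 173% of the wild-type level (153 to 197%) and the mms19 level 80.6% (69.5 to 93.8%). Set directly against mms19, abo4 stood at 215% (187 to 247%), the only histone gene more than 2-fold higher in that comparison, where 2.09% of all genes were higher by that limit. The 2 that were more than 2-fold lower, AT3G53650 and AT3G09480, stood beside 2.31% of all genes. The scaling of the mms19 and abo4 columns against each other is not stated in the study's methods, and the median log2 ratio of all genes between them was 0.01.

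H4 has no replacement variant in this gene set and is needed in equal amounts with both H3 forms. AT5G59690 was listed at 109 FPKM in Col-0, 94.9 in mms19 and 158 in abo4, which is 146% of the wild type in abo4 (139 to 153%). AT3G53730 was listed at 134, 143 and 165 FPKM, 123% in abo4 (119 to 127%). These were the H4 genes with the largest ratios in abo4. The strongest H4 gene in the wild type, HIS4, was listed at 148, 157 and 141 FPKM, and it was below the wild type in abo4, at 94.9% (90.8 to 99.3%).

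The remaining 5 H4 genes had log2 ratios between -0.14 and 0.11 in mms19 and between -0.13 and 0.20 in abo4. They are AT1G07660 (19.9, 18.3 and 18.2 FPKM in the wild type, mms19 and abo4), AT1G07820 (68.4, 73.9 and 63.4), AT3G45930 (37.5, 35.3 and 43.2), AT3G46320 (31.6, 29.9 and 34.2) and AT5G59970 (55.4, 50.2 and 59.3). Of the H4 genes, 6 form 3 pairs whose coding sequences share 97.1 to 98.1% of bases. Between 8.07% and 31.3% of the 45-nt windows of these 6 genes also occurred in another transcript, so their single values depend on how shared reads were assigned, which is not stated. AT5G59690 is among them, with 9.84% of its windows shared. Summed over all 8 genes, H4 in abo4 stood at 113% of the wild-type level.

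The canonical H2A genes stayed between 80% and 125% of the Col-0 level in both mutants. HTA10, the strongest, was listed at 94.1 FPKM in Col-0, 90.4 in mms19 and 113 in abo4. HTA2 was listed at 40.04, 46.5 and 33.9 FPKM and was the 1 canonical H2A gene with opposite log2 ratios of over 0.2 in size, 0.21 in mms19 and -0.24 in abo4. HTA1, known as RAT5 from a screen for resistance to Agrobacterium transformation, was listed at 33.6, 31.4 and 34.2 FPKM, and HTA13 at 20.04, 22.0 and 20.1 FPKM. Summed over the canonical H2A genes, abo4 stood at 107% of Col-0.

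In Col-0 and mms19, H2B held both the highest and the lowest level among the replication-coupled genes. HTB2 was listed at 232 FPKM in Col-0, 220 in mms19 and 295 in abo4, which is 127% of the wild type in abo4 (123 to 131%). HTB4 was listed at 232, 231 and 253 FPKM, HTB9 at 168, 155 and 175, and HTB11 at 139, 137 and 130. The last 3 stayed between 80% and 125% in both mutants, as did HTB1 (65.5, 73.6 and 60.7 FPKM) and AT2G37470 (47.8, 48.6 and 42.0 FPKM). AT2G28720 was listed at 69.4, 90.5 and 69.7 FPKM, so that it was higher in mms19 alone, at 130% (124 to 137%).

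The 3 weakest H2B genes were each lower in abo4. AT3G53650 was listed at 14.4 FPKM in Col-0, 17.9 in mms19 and 4.63 in abo4, and its abo4 level was 32.2% of the wild type (27.03 to 38.2%), the lowest share among the 43 genes that averaged 1 FPKM or more. AT3G09480 was listed at 4.72, 8.14 and 2.79 FPKM, which is 172% in mms19 (140 to 215%) and 59.1% in abo4 (44.4 to 79.3%). It was the only histone gene above 125% in mms19 and below 80% in abo4, beside 1.32% of all genes, and rests on about 142, 225 and 74.6 reads. AT5G02570 was listed at 3.29, 2.30 and 1.96 FPKM, from about 58.6, 37.5 and 30.99 reads, and lies on the opposite strand inside the H2A.W gene HTA12, from which its reads cannot be told apart without strand.

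The summed H2B level hid these genes, since it stood at 106% of the wild type in abo4. Markers of dry seeds differed in the same directions as AT3G53650 and AT3G09480. The 5 seed markers summed to 16.5 FPKM in Col-0, 28.4 in mms19 and 9.81 in abo4, with all 5 higher in mms19 and all 5 lower in abo4. CRU2, a seed storage globulin, was listed at 0.0873, 1.02 and 0 FPKM, and was the only one more than 2-fold higher in mms19. The part of seed tissue in the values of these H2B genes was not tested. AT3G53650 lies 22133 nt from the H4 gene AT3G53730, which had a log2 ratio of 0.30 in abo4 beside -1.62 for AT3G53650.

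Of the 4 H2A.Z genes, 3 lay above 125% of Col-0 in abo4. H2A.Z replaces H2A in nucleosomes at transcription start sites and in responsive genes. HTA11 was listed at 36.1 FPKM in Col-0, 35.0 in mms19 and 68.2 in abo4, and its abo4 level of 189% (177 to 202%) was the highest share of any histone gene. HTA4 was listed at 18.9, 24.8 and 32.6 FPKM, which is 131% in mms19 (118 to 147%) and 173% in abo4 (155 to 192%). HTA8 was listed at 12.2, 15.4 and 17.1 FPKM, 126% in mms19 (111 to 143%) and 140% in abo4 (123 to 158%). HTA4 and HTA8 were the 2 histone genes above 125% in both mutants, beside 2.77% of all genes. HTA4 overlaps another annotated gene.

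HTA9, the strongest H2A.Z gene, was lower in abo4. It was listed at 144 FPKM in Col-0, 137 in mms19 and 124 in abo4, which is 85.8% in abo4 (82.3 to 89.5%), and it too overlaps another gene. With HTA9 lower, the H2A.Z sum of abo4 was 114% of that in Col-0, and the share of HTA11 in it was 17.1% in Col-0, 16.5% in mms19 and 28.2% in abo4. Of the summed level of all 13 H2A genes, H2A.Z held 31.9%, 31.2% and 33.0%, so the mix of H2A forms stayed close to that of the wild type.

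H2A.X and H2A.W stayed between 80% and 125% in both mutants. HTA5, the stronger H2A.X gene, was listed at 83.2 FPKM in Col-0, 102 in mms19 and 96.5 in abo4, and exceeded Col-0 at 122% (117 to 128%) in mms19 and 116% (111 to 121%) in abo4. HTA3 was listed at 28.2, 25.04 and 29.7 FPKM. The H2A.W genes were listed at 73.7, 74.97 and 86.0 FPKM for HTA6, 52.4, 48.4 and 46.1 for HTA7, and 26.8, 27.3 and 31.2 for HTA12. H2A.X held 16.8%, 18.7% and 17.2% of the summed H2A level, and H2A.W 23.0%, 22.1% and 22.3%.

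Among the linker genes, only HIS1-3 differed. HIS1-3 is the short H1 form known to be induced by drought and abscisic acid. It was listed at 287 FPKM in Col-0, 259 in mms19 and 141 in abo4, and the abo4 level was 49.1% of the wild type (47.5 to 50.7%). AT1G06760 was listed at 151, 146 and 150 FPKM, and AT2G30620 at 101, 111 and 100 FPKM, so the other linker genes stayed between 80% and 125% in both mutants. HIS1-3 held 53.2% of the summed H1 level in Col-0, 50.2% in mms19 and 36.1% in abo4. The 3 genes together stood at 72.4% of Col-0 in abo4. The seed marker sums given above were also lower in abo4, though higher in mms19, where HIS1-3 stood at 90.2% (87.8 to 92.6%), and their part in the HIS1-3 value was not tested.

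**Figure D3:**
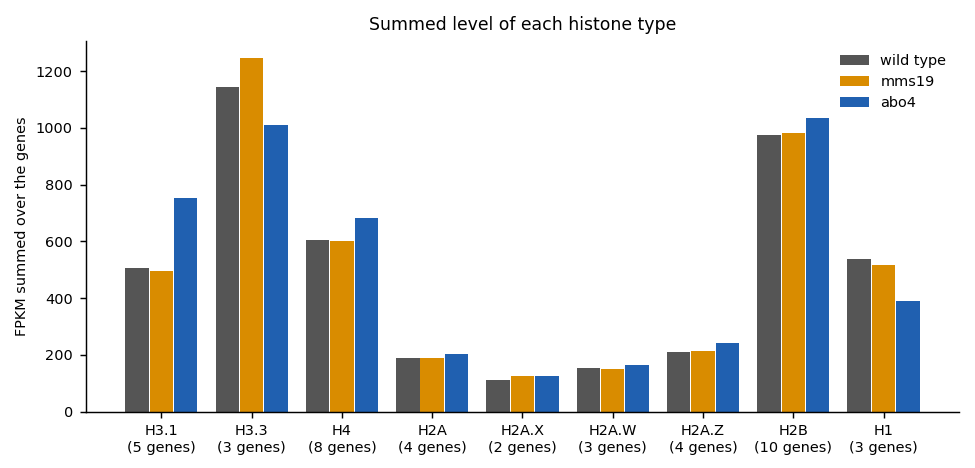
FPKM summed over the genes of each histone type (vertical axis from 0) in the wild type, mms19 and abo4, 1 library each, so the bars have no error. H3.1 in abo4 reaches 751.4 beside 506.7 in the wild type, and the 3 linker genes reach 390.7 beside 539.6.

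By class, the medians over genes and the summed levels differed in what they showed. In mms19 the median log2 ratio was -0.02 for the 27 replication-coupled genes, -0.01 for the 14 variants and -0.05 for the 3 linker genes. In abo4 it was 0.01 for the replication-coupled genes, 0.14 for the variants and -0.02 for the linker genes. By median the variants thus stood above the replication-coupled genes in abo4, by 0.14, and with only H3.3 and H2A.Z as variants the difference of replication-coupled genes minus variants was -0.0003. By summed FPKM the order was the reverse, with 117% of the wild type for replication-coupled genes and 95.5% for variants, since strong genes carry the sums and AT5G65360, AT1G09200 and the H3.3 genes are among the strongest. In mms19 the sums were 99.96% and 107%.

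AT5G65360 and AT1G09200, the H3.1 genes with the largest ratios in abo4, share a promoter element with other histone genes. The octamer CGCGGATC is a motif of plant H3 and H4 promoters, and was searched on both strands from 250 bases before to 50 bases after each annotated start. It was found in 40 of 27443 protein-coding genes (0.146%), and 10 of these are histone genes: AT5G65360, AT1G09200 and AT5G10400 (H3.1), AT4G40040 (H3.3), AT1G07660 and AT5G59690 (H4), HTA10 and HTA13 (H2A), HTA6 (H2A.W) and AT1G06760 (H1). AT1G09200 and HTA10 hold it in 2 copies each. The H3.1 gene AT5G10390, with a log2 ratio of 0.19 in abo4, lacks the octamer. By class, 7 of 27 replication-coupled genes, 2 of 14 variants and 1 of 3 linker genes hold it.

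The octamer is shown in capitals in 5 stretches: those of the 3 replication-coupled genes with the largest log2 ratios in abo4, and that of AT5G10400, which has the octamer and whose abo4 interval, 92.4 to 107%, includes the Col-0 level. The stretches are from the RefSeq assembly TAIR10.1. They lie at chr5:26120689-26120718 on the minus strand for AT5G65360, at chr1:2972406-2972435 (distal) and chr1:2972335-2972364 (proximal) on the minus strand for AT1G09200, at chr5:24051392-24051421 on the plus strand for AT5G59690, and at chr5:3271059-3271088 on the minus strand for AT5G10400.
AT5G65360: tttagacgtgaCGCGGATCactaaaattaa
AT1G09200 distal: tcgtaccttcaCGCGGATCagtgttagaaa
AT1G09200 proximal: ctgtgatttcaCGCGGATCgtgatagaaac
AT5G59690: cactgccatcaCGCGGATCactaatatgaa
AT5G10400: ttaacacaggaCGCGGATCgtaaagataca
The first base of the octamer lies at -126 from the annotated start in AT5G65360, at -90 and -19 in AT1G09200, at -71 in AT5G59690 and at -120 in AT5G10400.

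As a description, the 7 replication-coupled genes with the octamer had a median log2 ratio of 0.27 in abo4 and -0.06 in mms19, and the 20 without it had -0.04 and 0.01. The ranges overlapped, since AT1G07660 has the octamer and a log2 ratio of -0.13 in abo4, and HTB2 lacks it at 0.35. The sets also differ in histone type, since 0 of the 10 replication-coupled H2B genes hold the octamer. AT3G53650, AT3G09480 and AT5G02570, the H2B genes at -1.62, -0.74 and -0.72 in abo4, are thus all in the set without it. The part of histone type in the difference between the sets was not tested. Over all 10 histone genes with the octamer, the median was 0.11 in abo4 and -0.04 in mms19. Those outside the replication-coupled class, AT4G40040, HTA6 and AT1G06760, had -0.21, 0.22 and -0.01 in abo4. HTA11, HTA4 and HTR12, with the highest ratios of all histone genes in abo4 (0.92, 0.79 and 0.78), lack the octamer. The hexamer ACGTCA, searched on both strands, was found in 9.19% of all protein-coding genes and in 9 of the 10 replication-coupled H2B genes. Of the E2F words TTTCCCGC, TTTGGCGC, TTTCGCGC and TTTGCCGC, at least 1 was found in 1.76% of all genes, and among the histone genes in AT3G45930, AT3G46320 and HTB2. TATAAA, searched on the gene's strand, was found in 37.2% of all genes, 55.6% of the replication-coupled genes and 21.4% of the variants. No matches of different motifs overlapped in the histone genes. A match is a string in the reference and was not examined for binding.

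**Figure D4:**
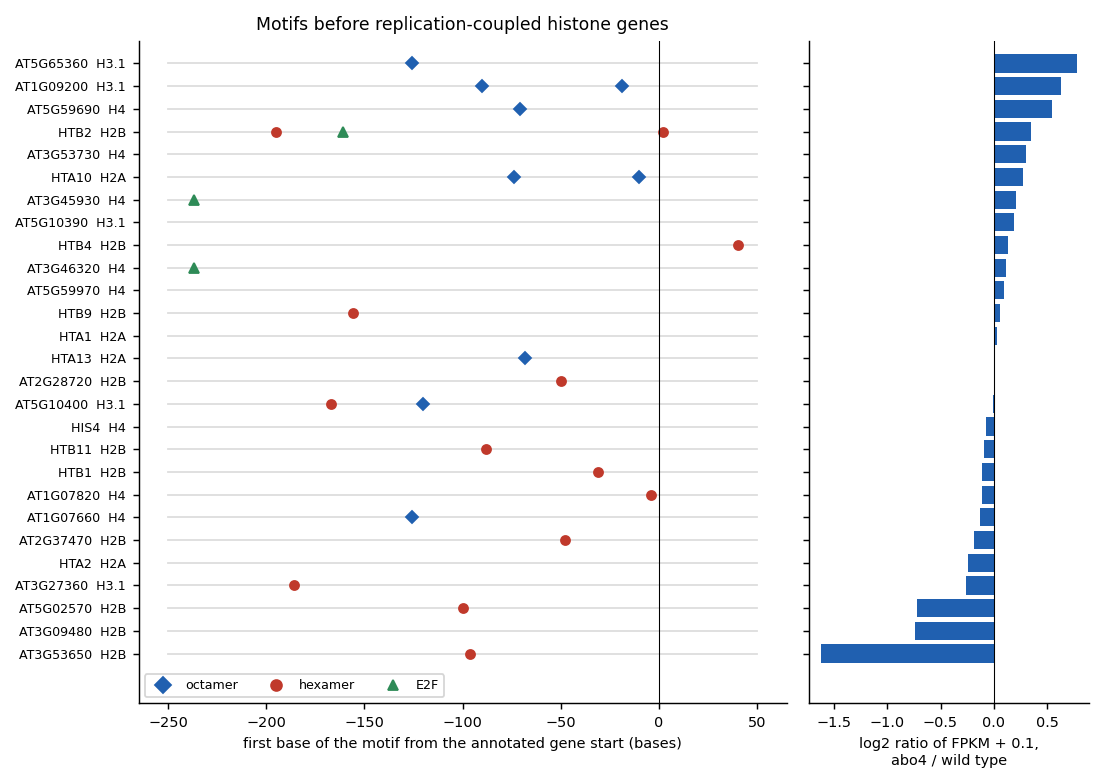
Left, position of the octamer (diamonds), the hexamer (circles) and the E2F words (triangles) from 250 bases before to 50 bases after the annotated start (0 on the horizontal axis) of the 27 replication-coupled genes; right, their log2 ratio of FPKM + 0.1 in abo4 over the wild type. Genes run from the highest to the lowest ratio, and the first 3 hold the octamer.

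Several histone genes lie close together on the chromosomes, and some neighbours differed in the direction of their ratios. With gaps of up to 100000 nt, 20 of the 44 genes fell into 8 clusters. The largest holds 4 genes of 3 types on chromosome 5, AT5G59690, HTA6, HTB4 and AT5G59970. Their log2 ratios were 0.54, 0.22, 0.13 and 0.10 in abo4 and -0.19, 0.03, -0.01 and -0.14 in mms19. All 4 were thus higher in abo4 and mixed in direction in mms19. In the cluster of AT3G53650 and AT3G53730, the log2 ratios were -1.62 and 0.30 in abo4 and 0.31 and 0.09 in mms19.

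Genes whose products carry histones or place them on DNA were read as a separate list. Of 24 genes for histone chaperones and chromatin assembly, none was past 2-fold in either mutant. The median log2 ratio was -0.12 in mms19, with 0 genes above 125% and 3 below 80% (background 6.82% and 8.13%), and -0.11 in abo4, with 3 above and 4 below (background 12.6% and 13.7%). The largest differences were those of KNL2, a factor for loading CENH3, at 2.30 FPKM in Col-0 and 1.67 in mms19, and SWC2, a subunit of the complex that deposits H2A.Z, at 18.7 FPKM in the wild type and 11.8 in abo4. FAS1 and FAS2, subunits of the complex that deposits H3.1, had log2 ratios of -0.19 and 0.26 in abo4.

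Genes of S phase and of G2 and mitosis were higher in the abo4 library in which AT5G65360, AT1G09200 and HTR12 were higher. Of 19 S-phase genes, 18 were higher in abo4 (background 47.9%) and 1 lower (52.0%), with a median log2 ratio of 0.25. Of these, 8 were above 125% of the Col-0 level (background 12.6%). RNR2A, the lower gene, stood at 77.4% of Col-0 in abo4. The 2 past 2-fold (background 1.92%) encode subunits of ribonucleotide reductase. They are TSO2 at 61.5 FPKM in Col-0, 107 in mms19 and 345 in abo4, and RNR1 at 24.4, 25.3 and 51.6 FPKM. Of 15 G2/M genes all 15 were higher in abo4 (background 47.9%), with a median of 0.59. Of these, 11 were above 125% (background 12.6%) and 2 past 2-fold (1.92%). The 2 past 2-fold were the cyclin gene CYCB1;1 at 3.86, 7.43 and 10.7 FPKM and the kinase gene CDKB1;1 at 6.35, 7.18 and 14.99 FPKM.

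In mms19 the median was -0.11 for the S-phase genes, with 1 above 125% and 3 below 80% (background 6.82% and 8.13%). It was 0.08 for the G2/M genes, with 2 above and 0 below. ORC1A and CYCB1;1 were the genes with the lowest S-phase and the highest G2/M ratio in mms19, at log2 ratios of -0.35 and 0.93, and TSO2 had 0.80. The 4 shoot meristem markers summed to 19.7 FPKM in Col-0, 19.0 in mms19 and 26.6 in abo4. Whether the share of dividing cells differed between the seedlings, and its part in the H3.1 and CENH3 values, was not tested.

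**Figure D5:**
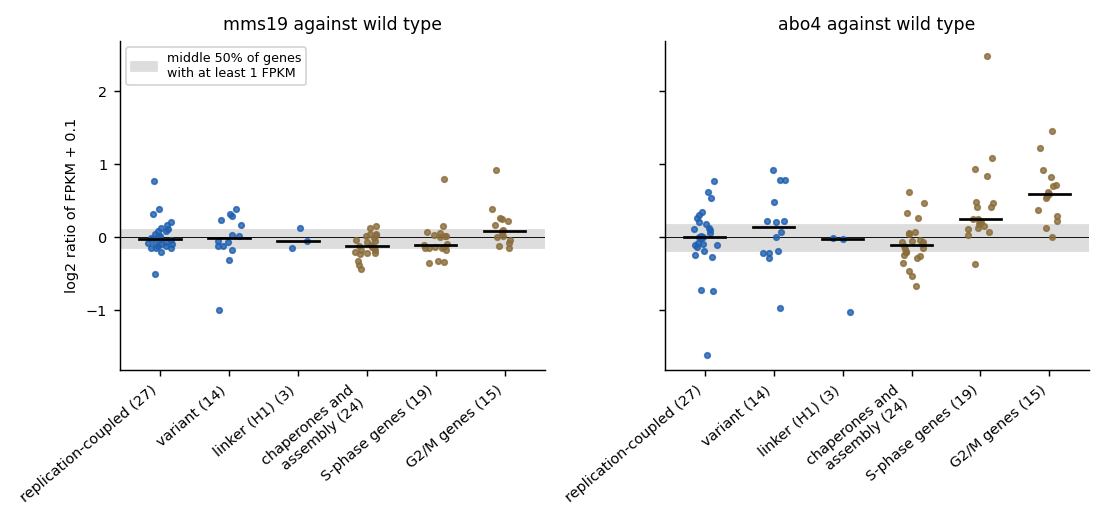
Log2 ratio of FPKM + 0.1 in mms19 (left) and abo4 (right) over the wild type for each gene (points) of the 3 histone classes and of 3 other lists, with the number of genes in brackets and the median as a black bar. The grey band spans the range between the quartiles of all genes averaging 1 FPKM or more, and the G2/M genes in abo4 have the highest median, 0.59.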

How the data were processed

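Total RNA from 14-day-old seedlings was sequenced by the authors on an Illumina instrument. Per the study's methods and the submitters' processing notes, 45-nt reads were aligned to TAIR10 with TopHat2 2.0.12, allowing up to 2 mismatches, and levels were computed with Cufflinks 2.0.1 and Cuffdiff. How multiply aligned reads were counted and whether strand was used are not given in the sources used here. The deposited values are FPKM, computed by the authors per gene on a linear scale, in 1 table with 3 columns. It holds 34133 entries for 33559 loci, and every column was mapped to a sample (0 were not). The labels name the mutant mms19-1, and the study's text is not uniform on the allele.

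Differences were measured as the log2 ratio of FPKM + 0.1, which understates the differences of low genes. Limits were 2-fold, and 125% and 80% of the wild type, and backgrounds used the 19771 loci averaging 1 FPKM or more. Reads were estimated from FPKM and effective transcript length (fragments of 200 ± 80 nt, shortest 49 nt). The read total of each library was set to the value at which the most estimates at short genes lay within 0.05 of a whole read. At that value the share was 95.9%, 95.5% and 93.0% (98, 89 and 86 genes in the wild type, mms19 and abo4). Since the totals were chosen by this share, it is no separate check of the estimated reads. Ratios carry 95% exact binomial intervals, which cover counting error only. Transcripts, starts, motifs, overlaps and 45-nt windows were read from RefSeq TAIR10.1, which gave names to part of the genes; the rest are given by locus. The 990 positions checked between the builds all overlapped.

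The members, classes and lists were chosen with earlier results of these data known. All histone genes are named with their values. Of the other lists, the genes past 2-fold and the gene with the largest ratio in each mutant are named by rule. FAS1, FAS2, RNR2A and the values of other markers were added after their values were seen. Simulated data for abo4 against the wild type (18585 genes, 200 changed 4-fold) were used to test the ratios, and 200 were recovered with 0 others called. Changes of 4-fold lie well past the limits used here, so this checks the calculation only. It does not bear on smaller differences or on the spread between libraries. Alternatives covered the added FPKM, a minimum level, centring, summed entries, summed classes, a narrower variant class, near-identical genes and the limit. Python 3.11.15, numpy 2.4.6, pandas 2.3.3, scipy 1.17.1 and matplotlib 3.10.9 were used.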

Additional observations from a re-analysis of the deposited data

How the results depend on the processing

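Of 108 alternative values of the counts and class medians, 91 stayed within 1.5 times of the count or within the median counting interval of the class's genes, and 17 moved further. Single-gene ratios moved by less than their counting intervals in all 5 settings run on them (86 or 88 values each). With 0.01 FPKM added, 1 gene (AT1G08170) was more than 2-fold lower in mms19 and, with it, 3 genes in place of 2 in abo4. With only genes averaging 1 FPKM or more, 1 gene was below 80% of the wild-type level in mms19 and 4 in abo4. With the limit at 1.5-fold, 1 gene was higher and 1 lower in mms19 (background 2.51% and 2.54%), and 5 were higher and 5 lower in abo4 (5.27% and 5.56%). The lower genes of both mutants include AT1G08170, which lies outside the background genes. As log2 ratios of summed FPKM, the variants moved to 0.10 in mms19 and -0.066 in abo4, the replication-coupled genes to 0.23 and the linker genes to -0.47 in abo4, and the difference of replication-coupled genes minus variants in abo4 from -0.14 to 0.30, so its direction turned. With only H3.3 and H2A.Z as variants, their median was 0.17 in mms19 and 0.0067 in abo4, and the difference was -0.20 in mms19 and -0.0003 in abo4. Without genes that overlap another gene, chosen after seeing the data, the linker class was HIS1-3 alone, at -0.15 in mms19 and -1.03 in abo4. With a background of at least 10 FPKM, also chosen after seeing the data, 7.36% of genes lay above 125% and 12.3% below 80% in abo4, and 4.39% and 4.99% in mms19.

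No paired analysis was possible because each genotype has 1 library, and leaving out a library would leave no comparison. At these depths counting error is small for strong genes and large for AT1G08170, AT5G02570 and AT3G09480, and the spread between seedlings of 1 genotype is unknown.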
